A study of Mus musculus with 2 samples.

Results

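Type I interferon stimulated genes are the genes that a cell switches on when it senses interferon-α or interferon-β. The list described here named 37 of them by symbol. It was chosen for the known place of its genes in this response, with earlier results of these data known. Of the 37, 35 were found among the 32285 genes of the count tables. The antiviral GTPases Mx1 and Mx2 were not analysed here. The data came from single-cell RNA sequencing (scRNA-seq) of CD45+ cells, the leukocytes of the tumor, and consisted of 2 libraries with 1 library per group.

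C57BL/6 mice carried subcutaneous tumors of MC38, a mouse colon adenocarcinoma line, in both flanks. In both groups the right tumor was treated by microwave ablation (MWA), which destroys tissue by heat, at a volume of about 300 mm3, and the CD45+ cells were taken on day 8 from the left tumor, which was not ablated itself. The MWA group received no TIGIT blockade according to the labels. The MWA plus TIGIT group also received an antibody against TIGIT, an inhibitory receptor of T and NK cells, intraperitoneally, 3 times every 3 days from day 1 after MWA by the labels, whereas the methods give another number of injections. How many mice were pooled into a library was not given in the sources used here. Every difference between the groups below is therefore a difference between 2 libraries without a replicate check, given with an interval that covers counting error only, and no p-value can be given.

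Type I interferons bind the receptor IFNAR1/IFNAR2, whose kinases are JAK1 and TYK2. Their signal leads to ISGF3, a transcription factor complex that binds the interferon stimulated response element, a repeat of GAAA separated by a pair of bases, near the start of its target genes. In tumors, type I interferon is best known for its role in antigen presentation by dendritic cells (DCs) and in the priming of CD8+ T cells, and macrophages and T cells that carry this program are known from many tumors.

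After removal of barcodes with under 200 genes (2 for MWA and 12 for MWA plus TIGIT), with over 10% mitochondrial UMIs (179 and 276) and of called doublets (806 and 786), 9231 and 9127 cells remained, with medians of 5355 and 6344 unique molecular identifiers (UMIs, each counting 1 captured transcript) and 1620 and 1871 genes per cell. The libraries shared 28 cell barcodes. The 35 genes took 156807 of the 56750491 UMIs of the MWA library and 202602 of the 67628892 UMIs of the other. Paired values below give the MWA group first and the MWA plus TIGIT group after it. The cells fell into 15 types named from marker genes, here called X-like, and 548 and 569 cells stayed unnamed. The summed markers of a type stood highest in that type for 11 of the 15. CD4+ T-like cells, cycling tumor-associated macrophage (TAM)-like cells and C1q-positive monocyte-like cells ranked 2 and cycling T-like cells ranked 4 for theirs. The cycling types were ranked by the T cell and TAM markers. Since the types were named from the same marker lists, these ranks are no independent check of the names. No cell type was known here to lack these genes, so no share of cells with a UMI could be set against a type that should have none.

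The element bound by ISGF3 was looked for in the promoters. Promoters of RefSeq (GRCm38.p6, 250 bases before to 50 after the start) were at hand for 28 of the 37 genes. The motif searched was GAAA, then any 2 bases, then GAAA again, on either strand and with overlapping matches counted. It was found in 16 of the 28 (57.1%), whereas 3.99% of all 27025 gene symbols in the same table held it. A longer motif with a further C at the end, each of whose matches is also a match of the shorter motif, was found in 12 (42.9%) against 0.944% of all. Within the 250 bases before the start, the shorter motif was found in 12 of the 28 against 3.46% of all. A match describes these letters only. The following stretches hold the matches of 9 genes to which the results return, each printed 5′ to 3′ on the strand of its gene, with the GAAA or TTTC blocks of the matches in capitals.
Isg15, chr4:156200856-156200915 (minus strand): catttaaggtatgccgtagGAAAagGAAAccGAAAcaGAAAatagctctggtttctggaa
Ifit1, chr19:34640769-34640828 (plus strand): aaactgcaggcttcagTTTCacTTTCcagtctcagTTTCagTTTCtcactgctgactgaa
Ifit3, chr19:34583365-34583424 (plus strand): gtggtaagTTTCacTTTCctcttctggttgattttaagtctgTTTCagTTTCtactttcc
Rsad2, chr12:26456538-26456597 (minus strand): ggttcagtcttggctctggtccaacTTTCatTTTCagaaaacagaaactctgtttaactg
Bst2, chr8:71537565-71537624 (minus strand): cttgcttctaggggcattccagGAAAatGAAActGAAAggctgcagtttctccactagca
Oas1a, chr5:120907526-120907585 (minus strand): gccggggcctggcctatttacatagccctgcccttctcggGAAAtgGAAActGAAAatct
Oas3, chr5:120777700-120777759 (minus strand): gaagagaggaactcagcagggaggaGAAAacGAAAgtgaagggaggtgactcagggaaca
Ifi206, chr1:173491324-173491383 (minus strand): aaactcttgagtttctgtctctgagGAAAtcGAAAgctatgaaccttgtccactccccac
Ifitm3, chr7:141010715-141010744 (minus strand): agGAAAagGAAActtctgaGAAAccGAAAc

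The stretch of Isg15 carried 4 GAAA blocks in a row, which give 3 overlapping matches between 97 and 38 bases before the start. Those of Ifit1 and Ifit3 carried 2 separate matches each, and those of Bst2 and Oas1a 2 overlapping ones. The stretch of Ifitm3 lies at bases 1 to 30 after the start and held 2 matches. No match was found in the window of 12 genes, among them Irf7, Irf9, Ifit2, Cmpk2, Samhd1, Isg20 and Xaf1, and 9 genes (Usp18, Oas2, Mx1, Mx2, Dhx58, Zbp1, Rtp4, Parp14 and Ifi204) were not in the promoter table.

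Several of the genes are neighbours in GRCm38. Ifit2, Ifit3, Ifit3b and Ifit1 lie in this order on chromosome 19 between 34550694 and 34650009. Oas2, Oas3 and Oas1a lie on chromosome 5 between 120730333 and 120907521, and Oasl2 and Oasl1 on the same chromosome between 114896936 and 114937915. Rsad2 (26442746 to 26456452) and Cmpk2 (26469204 to 26479837) are adjacent on chromosome 12 and are read in opposite directions. Ifi206, Ifi204 and Ifi205 lie on chromosome 1 between 173468485 and 174031810. Some of these copies are so alike that reads could not always be told apart. Of the 60-base windows of the transcript of Ifit3, 47.0% also occurred in Ifit3b, 52.9% of those of Oas1a occurred in Oas1g, 23.3% of those of Herc6 in Gm45193 and 20.7% of those of Ifi204 in Ifi211, so the counts of Ifit3, Ifit3b, Oas1a, Herc6 and Ifi204 are uncertain.

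The summed level of the 35 genes differed widely between cell types within a library. Such a level does not show which interferon, if any, a cell had sensed. Levels are UMIs of the gene per 1000000 UMIs of the type in that library (CPM), with exact Poisson 95% intervals. Since UMIs count transcripts from their 3′ end, no division by gene length was made, and genes can still differ in capture. The 35 genes together stood at 8830 CPM (8267 to 9421) in MWA neutrophil-like cells and at 11002 CPM (10404 to 11625) in MWA plus TIGIT neutrophil-like cells. Monocyte-like cells followed, with 8332 CPM (8087 to 8584) and 10332 CPM (10081 to 10587). The intervals of these leading types overlapped in both libraries. Type 2 DC-like cells held 6149 and 5850 CPM, C1q-positive monocyte-like cells 4738 and 4892 CPM, and TAM-like cells 3139 and 3168 CPM, and these places in the order were the same in both libraries.

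**Figure D1:**
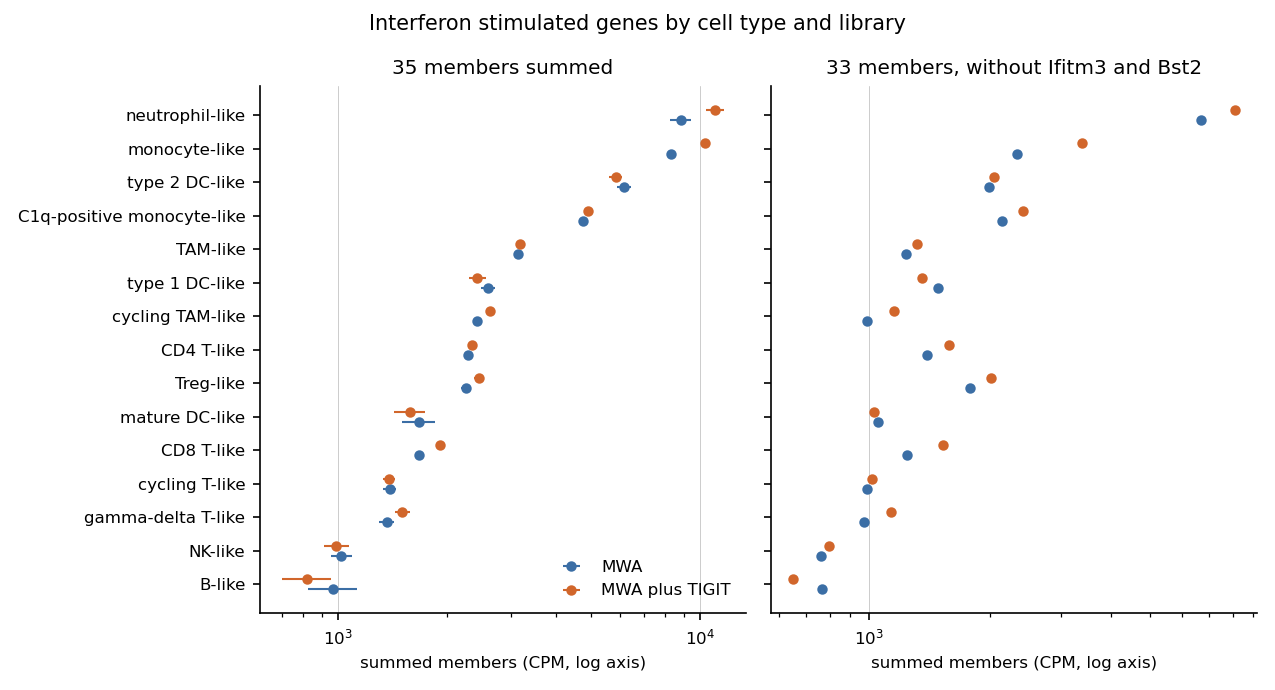
Summed level of the interferon stimulated genes in CPM (log axis) for each of the 15 cell types, with 35 genes in the left panel and 33 genes, without Ifitm3 and Bst2, in the right panel. Points are the MWA and MWA plus TIGIT libraries, and bars, drawn in the left panel only, are exact Poisson 95% intervals of counting error. Neutrophil-like cells lead in both panels, with 8830 and 11002 CPM on the left, and NK-like and B-like cells stand at or near the bottom.

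Lymphoid types stood lower. Treg-like cells held 2254 and 2443 CPM, CD4+ T-like cells 2287 and 2336 CPM and CD8+ T-like cells 1667 CPM (1637 to 1697) and 1911 CPM (1880 to 1943). Gamma-delta T-like cells held 1360 and 1502 CPM, NK-like cells 1019 CPM (954 to 1089) and 987 CPM (911 to 1069), and B-like cells 965 CPM (821 to 1126) and 819 CPM (699 to 955). The intervals of NK-like and B-like cells overlapped in both libraries. The 5 macrophage marker genes of the list for contaminating RNA (C1qa, C1qb, C1qc, Apoe and Lyz2) stood at 968 and 982 CPM in CD8+ T-like cells and at 883 and 958 CPM in NK-like cells, against 44669 and 52966 CPM in TAM-like cells. Their part in the levels of lymphoid types was not tested. The 5 T cell markers summed to 23.1 and 12.9 CPM in TAM-like cells. The 5 tumor or epithelial markers summed to 1.93 and 2.55 CPM in CD8+ T-like cells and were all at 0 in monocyte-like and neutrophil-like cells.

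Ifitm3 had the most UMIs of the list in all macrophage, monocyte, neutrophil and DC types of both libraries. Ifitm3, a membrane protein that blocks the fusion of viruses with endosomes, stood at 5740 and 6614 CPM in monocyte-like cells, where it made up 68.9% and 64.0% of the UMIs of the list. It stood at 3367 and 3298 CPM in type 2 DC-like cells, at 2131 and 2034 CPM in C1q-positive monocyte-like cells and at 1164 and 1126 CPM in TAM-like cells. Bst2 (tetherin, which holds budding virus at the cell surface) stood at 737 and 722 CPM in TAM-like cells, at 466 and 439 CPM in C1q-positive monocyte-like cells and at 264 and 286 CPM in CD8+ T-like cells. At least 1 UMI of Ifitm3 was found in 93.0% and 96.2% of TAM-like cells and in 23.7% and 17.8% of CD8+ T-like cells.

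Without these 2 genes the order changed. Neutrophil-like cells still led, with 6697 and 8108 CPM, and monocyte-like cells were next, with 2332 and 3391 CPM. TAM-like cells now held 1239 and 1320 CPM beside 1244 and 1532 CPM in CD8+ T-like cells, close in the MWA library and lower in the other, and less than Treg-like cells, at 1783 and 2010 CPM. TAM-like cells moved from rank 5 to rank 9 of the 15 types in both libraries.

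Beside Ifitm3 and Bst2, several genes stood high in some types and low in others, as the heat map of levels by gene and type shows. In neutrophil-like cells Rsad2 (viperin, which makes a nucleotide that stops viral RNA synthesis) stood at 1467 and 1790 CPM and Isg15, a ubiquitin-like protein, at 1139 and 1382 CPM. In TAM-like cells the same genes stood at 54.1 and 69.1 CPM and at 88.2 and 94.1 CPM. Neutrophil-like cells were few (96 and 87) and shallow, with medians of 921 and 1142 UMIs per cell. In Treg-like cells Samhd1, which hydrolyses deoxynucleotides, stood at 289 and 362 CPM and the RNA exonuclease Isg20 at 290 and 341 CPM, whereas Isg20 stood at 9.49 and 7.71 CPM in TAM-like cells. Ifi205, of the family of DNA-binding PYHIN proteins, stood at 289 and 223 CPM in type 1 DC-like cells and at 0.414 and 0.805 CPM in CD8+ T-like cells. The related Ifi206 showed the other order, with 88.8 and 113 CPM in CD8+ T-like cells and 13 and 19.3 CPM in type 1 DC-like cells. Ifi204, from the same family, was mostly myeloid, with 142 and 150 CPM in TAM-like cells, 272 and 390 CPM in monocyte-like cells and 4.56 and 7.51 CPM in CD8+ T-like cells.

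**Figure D2:**
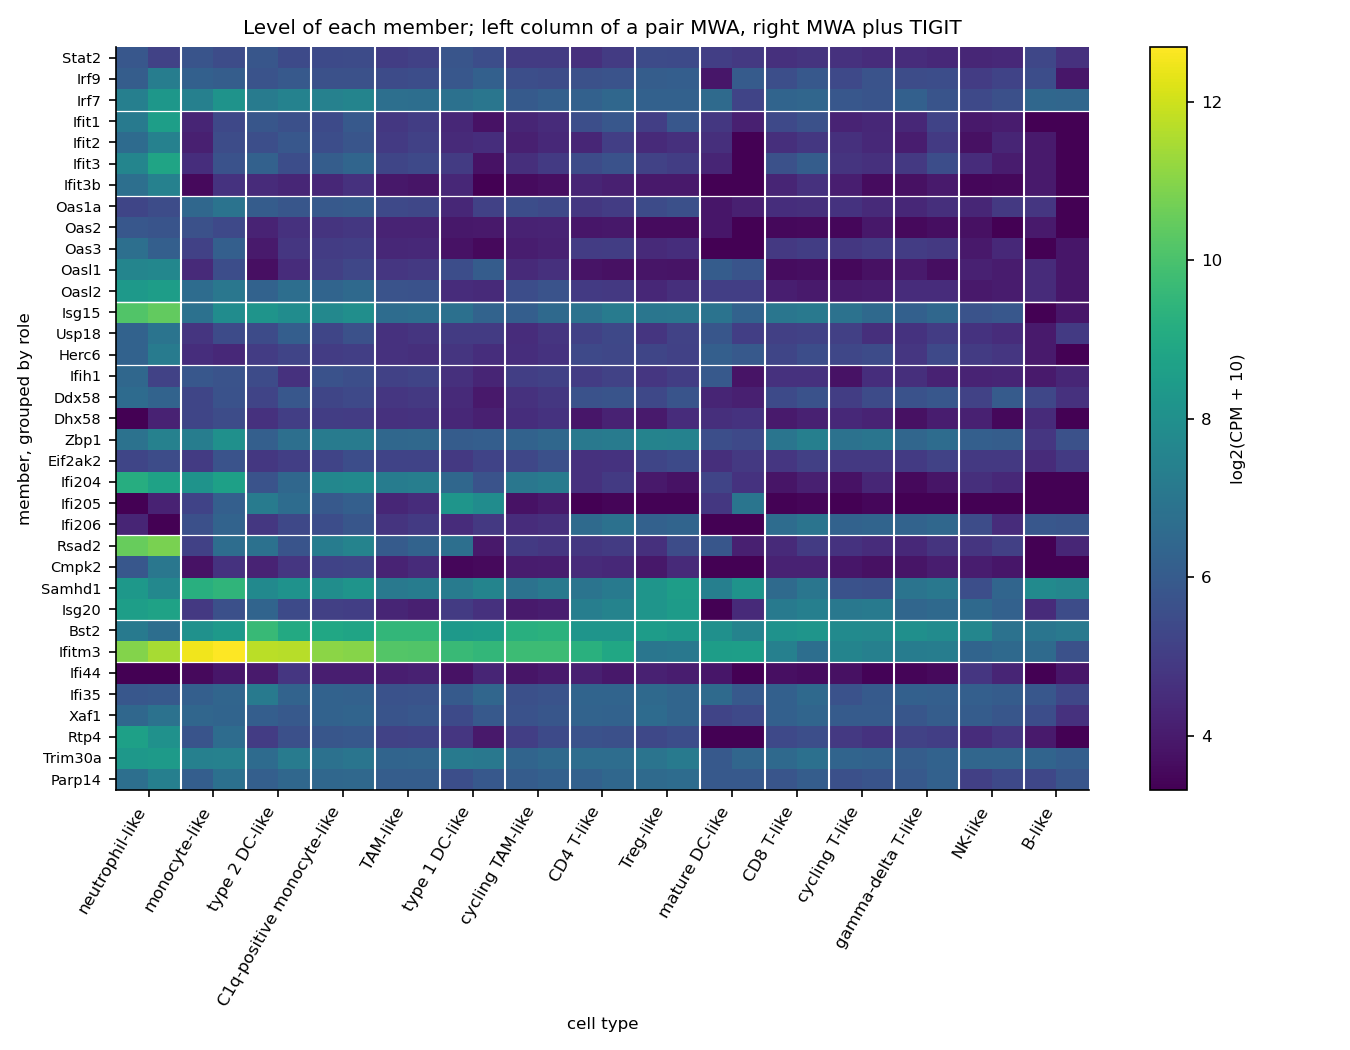
Heat map of log2(CPM + 10) of each of the 35 genes (rows, grouped by role) in each cell type (columns), the left column of a pair being the MWA library and the right the MWA plus TIGIT library. Ifitm3 is brightest in monocyte-like cells (5740 and 6614 CPM), Rsad2 and Isg15 are brightest in neutrophil-like cells, and Ifi205 stands out in type 1 DC-like cells (289 and 223 CPM).

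Of the ISGF3 subunits, Stat2 stood at 14.8 and 16.4 CPM in CD8+ T-like cells, 34.3 and 32.6 CPM in Treg-like cells and 22.8 and 24.9 CPM in TAM-like cells. Irf9, the DNA-binding subunit, ranged in these types from 33.7 to 59.0 CPM. Irf7, the factor that amplifies the production of type I interferon, stood at 71.2 and 75.2 CPM in CD8+ T-like cells, at 95.9 and 95.8 CPM in TAM-like cells and at 161 and 270 CPM in monocyte-like cells. Among the RNA sensors, Ddx58 (RIG-I) stood at 33.4 and 41.2 CPM in CD8+ T-like cells and at 18.0 and 19.2 CPM in TAM-like cells. Zbp1, a sensor of Z-form nucleic acid, stood at 114 and 155 CPM in CD8+ T-like cells and at 77.1 and 80.3 CPM in TAM-like cells. The oligoadenylate synthetases, which activate RNase L, were led in TAM-like cells by Oasl2 (43.3 and 41.2 CPM) and Oas1a (32.5 and 30.1 CPM) and in CD8+ T-like cells by Oas3 (19.7 and 22.3 CPM), where Oasl2 stood at 7.32 and 5.90 CPM.

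Genes outside the list with the most similar level across types were sought over 30 points (15 types in each of the 2 libraries), which share their library, depth and ambient RNA. The summed level of the 35 genes went most closely with Ccl6 (Pearson r = 0.913), Rasgrp4 (0.910) and Msrb1 (0.909), and the interferon-inducible Oas1g and Ifitm2 (both 0.891) were among the first 10. With Ifitm3 and Bst2 left out, Chmp4b (0.914), Il1rap (0.888) and Cd44 (0.884) came first, and Slfn4 (0.862) and Rnf213 (0.856), which are also interferon stimulated genes, were among the first 10. These values describe the types and are no test.

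Cells within a type were also described by their UMIs of the list. For this, each cell was thinned to 1000 UMIs, and shallower cells were left out (17 and 20 CD8+ T-like, 8 and 4 TAM-like and 55 and 38 neutrophil-like cells). At least 3 UMIs of the list were then found in 22.7% (20.6 to 24.9) and 26.0% (23.9 to 28.2) of CD8+ T-like cells, and without thinning in 73.7% and 77.8%. The shares were 45.1% (43.2 to 47.0) and 46.8% (44.9 to 48.6) of TAM-like cells, 60.5% and 60.2% of C1q-positive monocyte-like cells, 93.7% and 98.2% of monocyte-like cells and 10.6% and 8.55% of NK-like cells. The tenth of CD8+ T-like cells with the most such UMIs held 45.0% and 43.5% of them. The tenth of cells with the most UMIs of all genes held 20.8% and 21.4% of all UMIs before thinning. For monocyte-like cells the tenth with the most held 20.4% and 22.2%, beside 18.5% and 15.9% of all UMIs. Low counts differ between cells by counting error alone, the more so the lower the level of a type. The part of this error in these shares and those below was not measured, so they cannot be compared between types.

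With Ifitm3 and Bst2 left out, at least 5 UMIs of the other 33 genes were found in 7.53% and 8.02% of CD8+ T-like cells, 5.30% and 5.93% of TAM-like cells and 13.7% and 14.5% of C1q-positive monocyte-like cells. The share was 11.7% and 26.6% in monocyte-like cells and 34.1% and 42.9% in the neutrophil-like cells that remained. In TAM-like cells the tenth with the most then held 51.0% and 49.9% of the UMIs of the 33 genes.

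**Figure D3:**
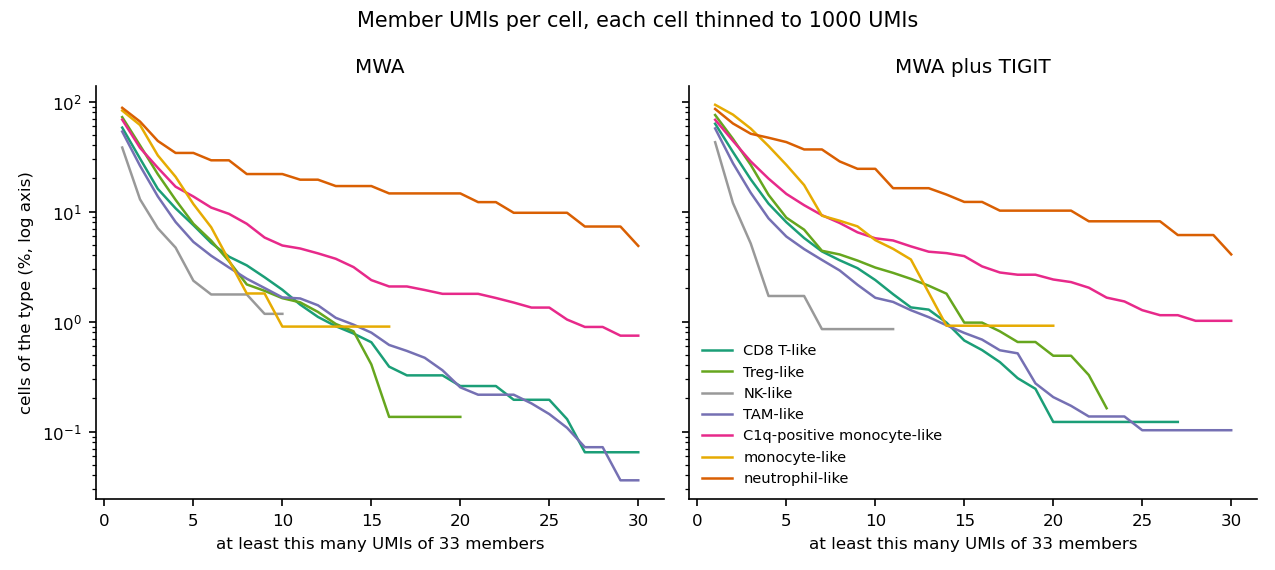
Share of the cells of a type (%, log axis) with at least the number of UMIs of 33 genes (without Ifitm3 and Bst2) on the x axis, each cell thinned to 1000 UMIs, for the MWA library (left) and the MWA plus TIGIT library (right). At 5 UMIs the line of neutrophil-like cells is highest, with 34.1% and 42.9% of cells, and those of CD8+ T-like and TAM-like cells lie below 10%. At 3 UMIs the line of monocyte-like cells lies above that of neutrophil-like cells in the MWA plus TIGIT library (56.9% against 51.0%).

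Many of these genes stood higher in the same cells. Ifit3, an RNA-binding antiviral protein with a pair of matches in its promoter, was used to split each type, a gene chosen after its values had been seen. An Ifit3 UMI was found in 157 of 1558 (10.1%, 8.63 to 11.7) and 194 of 1654 CD8+ T-like cells (11.7%, 10.2 to 13.4). In TAM-like cells it was found in 206 of 2780 (7.41%, 6.46 to 8.45) and 268 of 2919 (9.18%, 8.16 to 10.3). For C1q-positive monocyte-like cells the shares were 8.75% and 11.8%, for CD4+ T-like cells 5.30% and 6.94% and for Treg-like cells 3.41% and 3.48%. Cells were not thinned for these shares. Median depth ranged from 2211 UMIs in MWA Treg-like cells to 10172 UMIs in MWA plus TIGIT TAM-like cells. The intervals of the libraries overlapped in each of these types, and the median depth of cells with and without an Ifit3 UMI was close, with 3866 and 4195 UMIs in MWA CD8+ T-like cells and 3961 and 3860 UMIs in the other library.

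In CD8+ T-like cells with an Ifit3 UMI, the other measured genes of the list, leaving out Ifit3b, stood at a median of 3.79 and 3.96 times their level in cells without it, and 26 of 27 and 27 of 28 were at least 2-fold higher. Over all measured genes the median was 0.95 and 0.988, and 2.28% and 2.01% were at least 2-fold higher. In TAM-like cells the medians were 5.21 and 5.23, with 30 of 33 genes at least 2-fold higher in each library, against 2.40% and 2.30% of all genes. C1q-positive monocyte-like cells had medians of 6.43 and 5.22. Cells with an Ifit3 UMI did not hold all UMIs of the list. In MWA CD8+ T-like cells Bst2 had 498 UMIs in cells with an Ifit3 UMI and 1413 in the others, and Isg15 had 492 and 356. The folds describe how the UMIs were shared among cells and were not tested.

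Single genes differed in how far they stood apart in these cells. Ifit1 was 15.3 and 16.8 times higher in CD8+ T-like cells and 32.4 and 43.1 times higher in TAM-like cells with an Ifit3 UMI. Rsad2 was 21.9 and 22.9 times higher in CD8+ T-like cells, 36.7 and 47.7 times in TAM-like cells and 134 and 97.7 times in C1q-positive monocyte-like cells. Isg15 was 13.1 and 12.9 times higher in CD8+ T-like cells and 12.8 and 15.1 times in TAM-like cells. At the other end, the ISGF3 subunit Irf9 was 1.83 and 2.45 times higher in CD8+ T-like cells and 1.36 and 1.34 times in TAM-like cells. Irf7 was 6.21 and 5.67 times and Stat2 3.59 and 3.14 times higher in TAM-like cells. Ifitm3 was 2.42 and 2.13 times and Bst2 1.91 and 1.79 times higher in TAM-like cells. In CD8+ T-like cells the fold of Ifitm3 was 2.38 and 1.26.

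**Figure D4:**
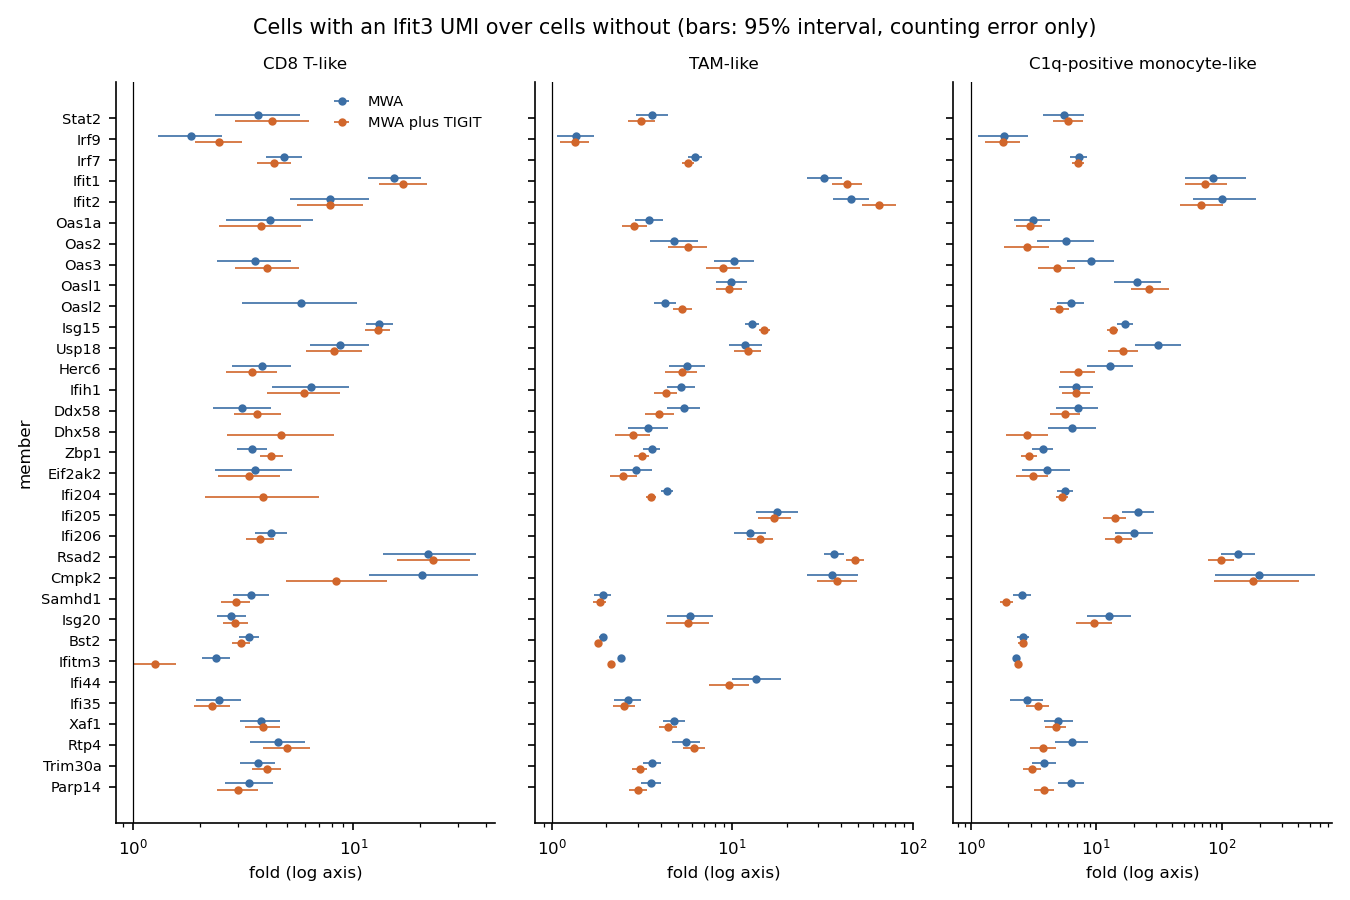
Fold (log axis) of each gene of the list in cells with an Ifit3 UMI over cells without, in CD8+ T-like, TAM-like and C1q-positive monocyte-like cells, for the MWA and MWA plus TIGIT libraries, with bars for the 95% interval of counting error. Rsad2 (21.9 and 22.9 in CD8+ T-like cells) and Ifit1 lie far to the right, and Irf9 (1.83 and 2.45) and Ifitm3 (2.38 and 1.26) lie closer to the line at 1.

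The tenth of cells richest in the 33 genes was also described by genes outside the list. It held 154 and 163 CD8+ T-like and 277 and 292 TAM-like cells. Its lower limit was 4 UMIs in CD8+ T-like and 3 in TAM-like cells, a value that a further 11, 30, 104 and 140 cells also reached. In CD8+ T-like cells the PYHIN genes Ifi214 (9.31 and 6.37 times) and Ifi213 (5.56 and 4.48 times) and Phf11b (4.35 and 5.93 times) were higher in the rich cells. Gzmb, which encodes granzyme B, was 1.73 and 2.36 times higher, Ifng was 1.00 and 0.988 times and the inhibitory receptor gene Pdcd1 0.256 and 0.820 times its level in the other cells. In TAM-like cells the chemokine gene Cxcl10 was 7.96 and 6.68 times and Cxcl9, which is led by interferon-γ, 2.54 and 1.41 times higher, while C1qa stood at 0.988 and 0.984 times and Arg1 at 0.851 and 0.704 times. Rich cells were shallower than the others, with medians of 3428.5 against 4288 and 3552 against 3995 UMIs in CD8+ T-like cells.

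The comparison of the groups asks whether the program differed in the distant tumor when TIGIT blockade was added to MWA. Over all cells the 35 genes stood at 2763 and 2996 CPM, a log2 ratio (MWA plus TIGIT over MWA) of 0.12 (0.11 to 0.13). In TAM-like cells, 3139 and 3168 CPM gave a ratio of 0.01 (−0.00 to 0.03), and in CD8+ T-like cells 1667 and 1911 CPM gave 0.20 (0.16 to 0.23). The ratio was 0.31 (0.25 to 0.37) in monocyte-like and 0.32 (0.19 to 0.44) in neutrophil-like cells. In C1q-positive monocyte-like cells it was 0.05 (0.02 to 0.07), but −0.051 without cells of over 5000 UMIs and −0.0079 with interferon genes kept in the clustering. It lay between −0.10 and 0.14 in the other lymphoid and DC types, except for −0.24 (−0.56 to 0.09) in B-like cells.

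The difference in CD8+ T-like cells moved with the makeup of the type. Its 4 clusters held very different levels. The cluster led by Ccl5, Gzma and Gzmk (633 and 879 cells) stood at 2423 and 2359 CPM, a ratio of −0.04 (−0.09 to 0.01), whereas that led by Ccl1, Xcl1, Pdcd1 and Lag3 (340 and 238 cells) stood at 811 and 953 CPM, a ratio of 0.23 (0.13 to 0.34). The cluster with Dapl1 and Tcf7 (242 and 210 cells) stood at 1598 and 2004 CPM (0.33, 0.23 to 0.42), and that with Dut and Cdca7 (343 and 327 cells) at 1769 and 1901 CPM (0.10, 0.04 to 0.17). With the clusters weighted alike in both libraries, the ratio in CD8+ T-like cells was 0.08, and in TAM-like cells it stayed at 0.01. Without the cells of over 5000 UMIs, which the study's own filter removed, the ratios were 0.04 in CD8+ T-like and 0.01 in monocyte-like cells.

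Single genes were called past the fold where their log2 ratio was at least 0.5 or at most −0.5 and they held at least 50 UMIs over both libraries and at least 1 in each. In CD8+ T-like cells, 31 of the 35 genes met the count limit, of which 4 were past the fold upward (12.9%) and 1 downward. Over all genes with as many UMIs, 7.13% were past it upward and 2.04% downward. The median ratio was 0.30 over the 31 genes and 0.14 over all genes. TMM factors, another scaling, shift every ratio of this type by −0.13, to a summed ratio of 0.07.

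The 4 genes higher in CD8+ T-like cells of the MWA plus TIGIT group were Rsad2, Ifi204, Ifit3b and Ifit3. Rsad2 stood at 11.9 and 21.1 CPM (86 and 157 UMIs in 63 and 86 cells), a log2 ratio of 0.83 (0.44 to 1.22), and Ifit3 at 39.5 and 58.2 CPM, a ratio of 0.56 (0.34 to 0.78). For Ifi204 the values were 4.56 and 7.51 CPM (0.72, 0.08 to 1.39) and for Ifit3b 9.80 and 15.3 CPM (0.64, 0.20 to 1.09). Ifitm3 went the other way, from 159 to 94.3 CPM, a ratio of −0.76 (−0.90 to −0.62), while the macrophage markers stood at 968 and 982 CPM in these cells. The next lowest were Oasl2, at 7.32 and 5.90 CPM (−0.31), and Cmpk2, a nucleotide kinase of mitochondria, at 8.70 and 8.45 CPM (−0.04). The count of upward calls was 0 without cells of over 5000 UMIs, and also 0 when CD8+ T cells were picked by marker UMIs alone.

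In TAM-like cells all 35 genes met the count limit and none was past the fold in either direction, while 2.59% of all genes were past it upward and 2.02% downward. The highest ratios were those of Cmpk2, at 8.98 and 12.4 CPM (0.47, 0.22 to 0.72), Ifi205, at 10.1 and 13.1 CPM (0.38), and Rsad2, at 54.1 and 69.1 CPM (0.35, 0.25 to 0.46). The lowest were those of Isg20, at 9.49 and 7.71 CPM (−0.30, −0.57 to −0.03), Ifit3b, at 5.11 and 4.53 CPM (−0.17), and Oas1a, at 32.5 and 30.1 CPM (−0.11). The median was 0.09 over the 35 genes and 0.05 over all.

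**Figure D5:**
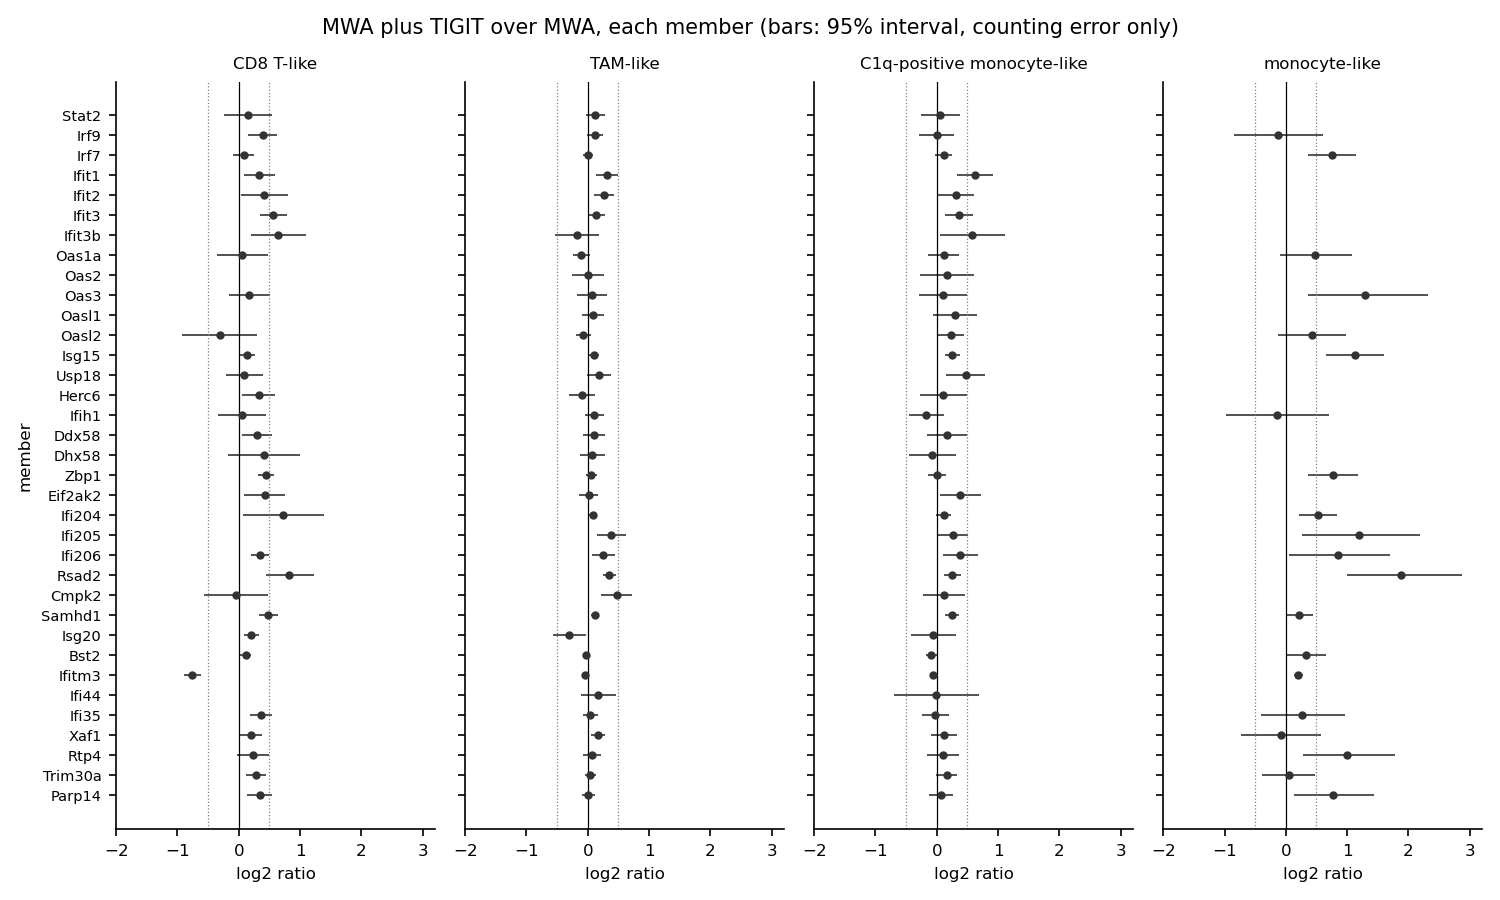
Log2 ratio of each gene of the list, MWA plus TIGIT over MWA, in CD8+ T-like, TAM-like, C1q-positive monocyte-like and monocyte-like cells, with bars for the 95% interval of counting error. In TAM-like cells all 35 genes lie within 0.5 of 0, and in monocyte-like cells Rsad2 (1.88), Oas3 (1.29), Ifi205 (1.19) and Isg15 (1.12) lie farthest right among genes with enough UMIs, with wide bars.

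Monocyte-like cells gave the largest share of genes past the fold upward among the types, from few cells (117 and 114). Of 20 genes that met the count limit, 10 were past it upward and none downward, against 8.95% and 6.28% of all genes, and the median was 0.50 against 0.03. Isg15 stood at 103 and 225 CPM (54 and 140 UMIs in 31 and 51 cells), a ratio of 1.12 (0.66 to 1.60), Irf7 at 161 and 270 CPM (84 and 168 UMIs in 45 and 68 cells), a ratio of 0.75 (0.36 to 1.14), and Zbp1 at 147 and 250 CPM, a ratio of 0.77 (0.36 to 1.18). These 3 genes had a UMI in more cells of the MWA plus TIGIT group. Those counts were made without thinning, and the median depth of monocyte-like cells was 4622 and 5958.5 UMIs. Rsad2 stood at 24.9 and 91.5 CPM, a ratio of 1.88 (0.99 to 2.87), but 1 cell held 22 of the 57 UMIs on the MWA plus TIGIT side and another held 8 of the 13 on the MWA side. The remaining calls were Oas3 (1.29), Ifi205 (1.19), Rtp4 (1.00), Ifi206 (0.85), Parp14 (0.77) and Ifi204 (0.52). With the 5 cells richest in these genes left out of each library, 5 of 15 genes were past the fold upward and the summed ratio was 0.28 (0.22 to 0.34). Without cells of over 5000 UMIs, 1 of 6 genes was past the fold upward and the summed ratio was 0.0050.

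In C1q-positive monocyte-like cells 2 of 35 genes were past the fold upward and none downward, against 4.87% and 2.16% of all genes. These were Ifit1, at 33.2 and 51.2 CPM (0.62, 0.33 to 0.92), and Ifit3b, at 10.4 and 15.5 CPM (0.57). Without cells of over 5000 UMIs it was 1 upward and 4 downward of 27. In cycling TAM-like cells it was 4 of 35 upward and none downward (all genes 2.9% and 1.93%), namely Ifit3b (0.72), Ifi205 (0.67), Ifit2 (0.53) and Ifit3 (0.51), with a median of 0.22 against 0.04. In neutrophil-like cells it was 3 upward and 2 downward of 12 (all genes 10.2% and 15.8%). Ifit1 stood there at 135 and 374 CPM (1.47, 0.57 to 2.45), Ifit3 at 183 and 435 CPM (1.24, 0.46 to 2.09) and Irf7 at 154 and 304 CPM (0.98), from 14 to 50 UMIs each. Without the 5 richest neutrophil-like cells of each library, the summed ratio was 0.14 (−0.01 to 0.29) and none was past the fold upward.

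Among the other lymphoid types the counts were small. CD4+ T-like cells had 2 of 30 genes past the fold upward and none downward (all genes 7.79% and 2.22%), Ifit2 (1.17) and the ISGF3 subunit Stat2 (0.51). Treg-like cells had 3 of 25 upward and none downward (6.69% and 3.82%), Rsad2 (1.29), Ifit1 (1.05) and Usp18 (0.60), the protease that removes ISG15. Gamma-delta T-like cells had 2 upward and 1 downward of 18 (9.7% and 3.05%), cycling T-like cells 1 and 1 of 22 (15.9% and 2.7%) and NK-like cells 2 and 1 of 11 (9.31% and 4.47%). In NK-like cells of the MWA plus TIGIT group, 1 cell held 21 of 30 UMIs of Isg15 and 12 of 15 of Rsad2. The upward share, 6.67% in CD4+ T-like and 11.1% in gamma-delta T-like cells, was close to that of all genes. B-like and mature DC-like cells had 1 and 3 genes above the count limit and are not counted.

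The dendritic types had calls in both directions. Type 1 DC-like cells (95 and 45) had 2 upward and 3 downward of 16 (all genes 11.4% and 7.4%), and type 2 DC-like cells (53 and 48) had 2 upward and 4 downward of 12 (15.1% and 4.75%). Rsad2 stood at 97.7 and 5.78 CPM in type 1 DC-like cells (75 and 3 UMIs), a ratio of −4.08 (−6.39 to −2.48), but 47 of the 75 UMIs came from 1 cell and the gene was found in 6 cells in all of that library. In type 2 DC-like cells it stood at 102 and 43.6 CPM (33 and 17 UMIs), with 23 of the UMIs of the MWA group in 1 cell. Ifi204 stood at 78.1 and 42.4 CPM in type 1 DC-like cells, a ratio of −0.88 (−1.66 to −0.16), with 60 UMIs in 27 cells and 22 UMIs in 16 cells. In both dendritic types, then, 1 cell held most of the Rsad2 UMIs of the MWA group.

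The rest of the pathway was described from lists of its steps. Of 21 interferon genes, the ligands, the type I interferon Ifnb1 had 31 and 40 UMIs over all cells, in 12 and 20 cells. Of these cells 8 and 13 were TAM-like, with 21 and 23 UMIs, and 3 and 5 were C1q-positive monocyte-like, with 4 and 14 UMIs. In the MWA library 1 type 2 DC-like cell held 6 Ifnb1 UMIs. No UMI of the listed interferon-α genes, Ifnab, Ifne, Ifnl2 or Ifnl3 was found in either library at this depth. Ifnk had 3 and 2 UMIs and Ifnz 1 and 7. TAM-like cells with an Ifnb1 UMI held the 35 genes at 6901 and 8232 CPM, and those without at 3131 and 3151 CPM. In C1q-positive monocyte-like cells the order differed between the libraries, with 3359 CPM in cells with an Ifnb1 UMI against 4744 CPM in the MWA library and 9099 against 4875 CPM in the other. Ifng, the type II interferon, was the only ligand above the count limit in CD8+ T-like cells, at 216 and 257 CPM, and in TAM-like cells it had a ratio of −0.64 at 1.89 and 1.21 CPM.

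Of 11 receptor and kinase genes, none was past the fold upward in either CD8+ T-like or TAM-like cells, and Socs3, a feedback inhibitor, was at 41.8 and 29.5 CPM in CD8+ T-like cells (−0.50). Ifnar1 stood at 57.3 and 61.6 CPM in CD8+ T-like and at 101 and 98.2 CPM in TAM-like cells. Of 14 sensors and adaptors that act before the interferon genes, 2 of 11 above the count limit were past the fold upward in CD8+ T-like cells, Tbk1 (13.7 and 21.9 CPM, 0.68) and Irf3 (24.0 and 34.1 CPM, 0.50), and none of 14 in TAM-like cells, against 7.13% and 2.59% of all genes in these types. Tbk1 is the kinase that phosphorylates Irf3.

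Of 71 further interferon stimulated genes in the files, 10 of 63 above the count limit were past the fold upward and none downward in CD8+ T-like cells (all genes 7.13% and 2.04%), with a median of 0.31, among them Ifit1bl1 (14.9 and 27.1 CPM, 0.86), Ifi211 (7.87 and 12.7 CPM, 0.70), the nuclear body gene Sp100 (166 and 258 CPM, 0.63) and Slfn2 (176 and 261 CPM, 0.57). In TAM-like cells none of 69 was past it upward and Ifi208 (4.58 and 3.06 CPM, −0.58) was past it downward (all genes 2.59% and 2.02%), with a median of 0.09. In monocyte-like cells 13 of 38 were past it upward (all genes 8.95%), with a median of 0.38, among them Ly6a (21.0 and 81.9 CPM, 1.96), Ifi213 (28.7 and 64.2 CPM, 1.16) and Cxcl10 (53.6 and 107 CPM, 1.01). The medians of the 35 genes in these types were 0.30, 0.09 and 0.50. The alternatives were tried on the 35 genes only, not on these further genes or the other lists. Leaving out cells of over 5000 UMIs lowered the upward counts of the 35 genes in CD8+ T-like and monocyte-like cells. TMM factors would shift every ratio in CD8+ T-like cells by −0.13.

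Of 26 genes led by interferon-γ, 3 of 22 were past the fold upward in CD8+ T-like cells and 2 of 24 in TAM-like cells (all genes 7.13% and 2.59%), where Cxcl9 stood at 311 and 444 CPM (0.51) and Nos2 had 142 and 294 UMIs (0.66). In monocyte-like cells none of 7 was past it upward and 1 downward (all genes 8.95% and 6.28%), Cxcl9 at 126 and 28.9 CPM (−2.13). With 7 genes, a count of 0 cannot be told apart from the share of all genes. Of the type I genes, 10 of 20 were past the fold upward in the same cells. The difference between these lists was not tested.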

How the data were processed

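Single-cell RNA libraries of the 2 groups were made with the 10x Genomics V3.1 kit, which reads the 3′ end of transcripts. The deposited files hold raw UMI counts per gene and cell, which the authors made with Cell Ranger (6.1.1 per the labels, 4.0.0 per the file headers) on mm10. They hold no annotation of cells, so types were rebuilt here. Cells needed at least 200 genes and no more than 10% of mitochondrial UMIs, and doublets were called against simulated doublets, scored on 20 components at 0.8% per 1000 cells. The study's limit of 5000 UMIs per cell was tried as an alternative. Seurat 5.3.0 (R 4.3.3) integrated the libraries (2000 variable features, 3000 integration features, 40 principal components, resolutions of 0.1, 1 for T and NK cells and 0.5 for myeloid cells), with 181 interferon-related genes kept out of the variable features. Clusters were named from marker lists, with limits set after a first clustering.

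UMIs were summed per type and library in Python 3.11.15 (numpy 2.4.6, scipy 1.17.1, pandas 2.3.3, scikit-learn 1.9.0, matplotlib 3.10.9). Levels carry exact Poisson intervals, ratios exact conditional binomial ones and shares exact binomial ones, all at 95%, and these cover counting error only. Cells are no replicates, so no test between the groups was made. Genes given in full are the highest and lowest by ratio in CD8+ T-like and TAM-like cells, the leading genes of each type, those past the fold and those with opposite directions, and others were singled out after their values had been seen. The members and lists were chosen with earlier results of these data known. The ratio and its interval were checked on simulated Poisson counts for CD8+ T-like and TAM-like cells. Such counts hold no gathering of UMIs in single cells, so the check could not show how that affects the intervals. Alternatives were TMM factors (edgeR 4.0.16), other limits on UMIs, cells, clustering, thinning and fold, and, chosen after seeing the data, the richest cells left out and clusters weighted alike.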

Additional observations from a re-analysis of the deposited data

Results flagged for a closer look

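Rsad2 had opposite directions between types. Its log2 ratio (MWA plus TIGIT over MWA) was 0.83 in CD8+ T-like, 1.29 in Treg-like and 1.88 in monocyte-like cells, and −4.08 in type 1 DC-like and −1.23 in type 2 DC-like cells, with intervals that exclude 0 on both sides. Single cells held many of these UMIs outside CD8+ T-like cells, such as 18 of 68 in Treg-like cells of the MWA plus TIGIT group and 47 of 75 in type 1 DC-like cells of the MWA group. Ifi204 was higher by 0.72 in CD8+ T-like and 0.52 in monocyte-like cells and lower, at −0.88, in type 1 DC-like cells. These differences between types were not tested, since each group is 1 library.

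Outside the named types, a cluster of 87 barcodes (43 and 44 cells) led by the mast cell protease genes Mcpt2, Tpsb2 and Cma1 and by Cd28 held 73 and 129 UMIs of the 35 genes (1814 and 3005 CPM), which gives a log2 ratio of 0.73 (0.30 to 1.16). Gm26917, Gm42418 and Lars2, which also lead a myeloid cluster with few UMIs per cell, were among its leading genes too. It had 793 UMIs per cell at the median and stayed unnamed because it met no marker list.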

How the results depend on the processing

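Many values moved with the processing, and 104 did not. The cause of a change was not tested unless the setting itself leaves out cells or genes.

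Summed log2 ratios were as follows. Without cells of over 5000 UMIs, the ratio was 0.038 in CD8+ T-like, −0.0052 in TAM-like, 0.0050 in monocyte-like and 0.17 in neutrophil-like cells and turned to −0.051 in C1q-positive monocyte-like cells. With interferon genes kept in the clustering it was 0.13 in CD8+ T-like and 0.033 in TAM-like cells and turned to −0.0079 in C1q-positive monocyte-like cells. With TMM factors it was 0.071 in CD8+ T-like, −0.025 in TAM-like and 0.0010 in C1q-positive monocyte-like cells, and that scaling shifts all ratios of neutrophil-like cells by 0.12. Without the 2 genes with the most UMIs it was 0.30 in CD8+ T-like, 0.092 in TAM-like, 0.18 in C1q-positive monocyte-like and 0.54 in monocyte-like cells. Without doublet removal it was 0.057 in TAM-like and 0.12 in neutrophil-like cells, and without integration 0.11 in C1q-positive monocyte-like and 0.24 in monocyte-like cells. With cells picked by marker UMIs it was 0.043 in TAM-like cells and turned to −0.034 in neutrophil-like cells. Without the 5 richest cells it was 0.14 in neutrophil-like cells, without the 10 richest 0.072 in these and 0.24 in monocyte-like cells, and with clusters weighted alike 0.083 in CD8+ T-like cells.

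Counts of genes past the fold upward were as follows. In CD8+ T-like cells (4) the count was 0 without cells of over 5000 UMIs, 0 with marker UMIs, 2 with at least 200 UMIs and 0 at a log2 ratio of 1, and downward (1) it was 2, 0, 1 and 0. In TAM-like cells (0 and 0) it was 1 upward without doublet removal and 3 downward without cells of over 5000 UMIs. In C1q-positive monocyte-like cells (2) it was 1 without cells of over 5000 UMIs, 4 and 5 without the 5 and 10 richest cells, 1 with at least 200 UMIs and 0 at a log2 ratio of 1, and downward (0) 4 without cells of over 5000 UMIs. In monocyte-like cells (10) it was 1 without cells of over 5000 UMIs, 5 without the 5 or the 10 richest cells, 18 with at least 20 UMIs, 3 with at least 200, 21 with no such limit and 5 at a log2 ratio of 1, and downward (0) 1 without integration. In neutrophil-like cells (3) it was 5 with interferon genes in the clustering, 1 with marker UMIs, 0 and 1 without the 5 and 10 richest cells, 10 with at least 20 UMIs, 0 with at least 200 and 11 with no such limit. Downward (2) these cells had 0 with interferon genes in the clustering, 1 without the 5 or the 10 richest cells, 1 with TMM factors, 0 with at least 200 UMIs, 5 with no limit and 0 at a log2 ratio of 1.

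Neutrophil-like over CD8+ T-like cells, a log2 ratio of 2.41 and 2.53, was 2.10 and 2.23 without cells of over 5000 UMIs, 2.61 and 2.87 with interferon genes in the clustering, 2.08 and 1.85 with marker UMIs, 2.09 and 2.03 without the 5 and 1.88 and 1.75 without the 10 richest cells, and 1.97 and 2.27 with TMM factors. In the MWA plus TIGIT group it was 2.34 without doublet removal and 2.40 without the 2 leading genes. The share of cells with at least 3 UMIs, 22.7% and 26.0% of CD8+ T-like cells and 45.1% and 46.8% of TAM-like cells, was 44.7% and 50.3% and 75.0% and 76.2% at 2000 UMIs, and 73.7% and 77.8% and 97.7% and 98.9% without thinning. The 104 values that did not move stayed within their interval or within 1.5 times the count. No paired analysis was possible because each group is 1 library with no shared number. Genes under 50 UMIs in a type, most of the list in NK-like, B-like and mature DC-like cells, could not be compared at this depth.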

Other observations

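Other unnamed clusters held values that belong to no comparison. A cluster led by Ctsk, Mmp9 and Acp5, genes known from osteoclasts, held the 35 genes at 1031 and 1228 CPM (25 and 24 cells), well below TAM-like cells at 3139 and 3168 CPM. A cluster of T cells led by the heat shock genes Hspa1b, Dnajb1 and Hspa1a held 1885 and 1673 CPM (67 and 54 cells). A cluster led by Dapl1, Lef1 and Tcf7, genes known from naive T cells, held 874 and 962 CPM (130 and 134 cells). Over both libraries this cluster held Cd8a at 162 and Cd8b1 at 539 CPM. It stayed unnamed because its leading genes held more mature DC markers than CD8+ T cell markers. Its cells are therefore left out of the values of CD8+ T-like cells, which stood higher, at 1667 and 1911 CPM. A myeloid cluster with few UMIs per cell and mitochondrial genes in front held 2804 and 2199 CPM (257 and 148 cells). Another cluster led by Cma1 and Mcpt2 had 26 MWA and 165 MWA plus TIGIT cells and held 2446 and 2481 CPM. The plasmacytoid DC markers Ccr9 and Siglech were also among its leading genes. Its median depth was 4855.5 UMIs per cell in the MWA library and 722 in the other. Whether the libraries hold the same kind of cells there was not tested.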
